A study of Brassica rapa subsp. pekinensis with 8 samples.

Results

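The COR15, KIN and RD29 genes encode proteins made at the end of the cold signalling chain, and 6 genes of Chinese cabbage (Brassica rapa subsp. pekinensis) carried their Arabidopsis locus names. They were chosen as the rows whose Arabidopsis locus was COR15A, COR15B, KIN1, KIN2, RD29A or RD29B (also called LTI65), and they are 6 of the 38008 genes in the table. Of the 6 loci, 3 had a gene. COR15B (AT2G42530) had Bra000263 and Bra000265, KIN2 (AT5G15970) had Bra008661, and RD29B (AT5G52300) had Bra022584, Bra022585 and Bra029121. No row was assigned to COR15A (AT2G42540), KIN1 (AT5G15960) or RD29A (AT5G52310). All 6 genes passed the filter on low counts and were tested. An assignment gives the locus named in the deposited annotation. A gene listed under COR15B, KIN2 or RD29B may therefore stand for the COR15, KIN or RD29 pair as a whole. Whether the genes listed under RD29B correspond to RD29B rather than RD29A was not tested, and the names below are those of the annotation.

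In Arabidopsis, cold induces the CBF (DREB1) transcription factors, which bind a short element called CRT or DRE in the promoters of cold-regulated genes. COR15 proteins, made by targets of this pathway, lie in the chloroplast stroma, where they protect membranes when cells lose water during freezing. KIN2 is a small hydrophilic protein induced by cold and by abscisic acid, the hormone of water stress. RD29B responds mostly to abscisic acid, through elements bound by the ABF transcription factors, and its cold response in Arabidopsis is the weaker one of the RD29 pair.

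RNA was sequenced from inbred line "50", which bolts late, and inbred line "4004", which bolts early, without vernalization (day 0, 0D Ver) or after 35 days of it (day 35, 35D Ver). Line "50" had 3 libraries on each day, numbered replicate 1 to 3. Line "4004" had 1 on each day, numbered replicate 3, and its replicates 1 and 2 are not analysed here. Vernalization was given in a cold room with shorter days to plants raised in a warmer long-day room, so cold, day length and plant age cannot be told apart between the days. No gene was altered in either line, and all plants were in vegetative growth. The labels name leaf as the tissue, whereas the methods name shoots.

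Total counts per library were 18.3 M to 27.1 M. Both replicate 3 libraries of line "50" stood apart from the others of their day: log2 CPM (counts scaled to the same library total) of replicates 1 and 2 correlated at r = 0.986 at day 0 and 0.99 at day 35 across genes, and replicate 3 with either of them at 0.901 to 0.928. The summed level of 15 leaf photosynthesis genes was 48726 to 97201 CPM in line "50" and highest in replicate 3 on both days. The 8 genes of the reference list summed to 2309 to 2588 CPM at day 0 and 3275 to 3471 at day 35, and none of them was called between the days. Markers of dividing cells summed to 56.1 to 74.8 CPM and then 42.0 to 58.5, and those of root to 0.122 to 0.199 and then 0.761 to 2.58. Shoot meristem markers summed to 30.1 to 37.9 CPM and then 29.1 to 50.9. Of the 3 tested genes in each of the root and meristem lists 2 were called higher at day 35. The median log2 fold change of the tested genes was 5.25 for meristem and 2.12 for root, which the sums do not show. In line "50" 12 of 16 root and 5 of 7 meristem genes had no reads at day 0. The part of these lists in the results below was not tested.

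All 6 genes were far higher at day 35 than at day 0 in line "50". In each of them the lowest day 35 library was above the highest day 0 library, which held for 12.4% of the 31191 genes tested. The means rose 13.4 to 107-fold. With the edgeR quasi-likelihood test 4 of the 6 were called higher (adjusted p under 0.05 and log2 fold change of at least 1), against 2.23% of all genes tested called higher and 1.69% lower. With the replicate number as a block all 6 were called higher, against 7.94% of all genes higher and 7.69% lower. DESeq2 called 6 of the 6 and limma 5. The median log2 fold change of the 6 was 5.63, and that of all genes tested was 0.01. In tissue RNA, more cells of a type and more RNA per cell cannot be told apart.

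Both COR15B genes rose. Bra000263 had normalized read counts of 148, 187 and 697 in replicates 1, 2 and 3 of line "50" at day 0, and of 12125, 12569 and 32324 at day 35. Replicates 1 and 2 lay close together on both days and replicate 3 lay above them. The mean rose from 344 ± 306.3 (SD, n = 3) to 19006 ± 11535.9, with a log2 fold change of 5.79 ± 0.93 (SE, edgeR adjusted p = 0.0253). Within the replicate numbers the increases were 81.9, 67.2 and 46.4-fold.

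Its copy Bra000265 started lower and had a larger fold. Its normalized read counts were 62, 75 and 298 at day 0 and 10281, 10196 and 20189 at day 35. Again no day 35 library came near the day 0 range, and replicate 3 was the highest on both days. The mean went from 145 ± 132.7 to 13555 ± 5745.1 (n = 3), a log2 fold change of 6.54 ± 0.89 (edgeR adjusted p = 0.017). The ratios within replicates 1, 2 and 3 were 166, 136 and 67.7.

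KIN2 had the widest scatter between replicate libraries relative to its mean at day 0. Bra008661 had normalized read counts of 25, 14 and 232 at day 0, and of 3532, 3816 and 21746 at day 35. Replicate 3 was 11.9-fold the mean of replicates 1 and 2 at day 0 and 5.92-fold at day 35. The mean went from 90.3 ± 122.8 to 9698 ± 10434.8 (n = 3), which is 107-fold, the largest ratio of means of the 6. The log2 fold change of 6.78 ± 1.54 did not pass the test (edgeR adjusted p = 0.062). With the replicate block it was 7.17 and the gene was called (adjusted p = 0.001). The increase was present in each number, at 141, 273 and 93.7-fold.

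The RD29B genes differed widely in read count, although their levels cannot be set against each other without gene lengths. Bra022585 had 598, 452 and 2196 normalized reads at day 0 and 40031, 40953 and 64842 at day 35. It took the most reads of the 6 genes in all 8 libraries, and its day 0 and day 35 ranges were wide apart. Its mean rose from 1082 ± 967.5 to 48609 ± 14066 (n = 3), with a log2 fold change of 5.47 ± 0.84 (edgeR adjusted p = 0.0229), and the ratios within replicates 1, 2 and 3 were 66.9, 90.6 and 29.5.

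Bra022584 had 35, 26 and 120 normalized reads at day 0 and 1856, 938 and 1516 at day 35. Here replicate 3 was above the other libraries at day 0 and between them at day 35. The mean rose from 60.3 ± 51.9 to 1437 ± 464.1 (n = 3), by 4.58 ± 0.71 on the log2 scale (edgeR adjusted p = 0.0236). The ratios within replicates were 53.0, 36.1 and 12.6, smallest in replicate 3.

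Bra029121 was the least read of the 6, with 8, 6 and 7 normalized reads at day 0 and 201, 38 and 42 at day 35. The highest day 35 value belonged to replicate 1 and was several times the others, while replicate 3 did not stand out. The mean went from 7 ± 1 to 93.7 ± 93 (n = 3), a log2 fold change of 3.60 ± 0.77 that did not pass the test (edgeR adjusted p = 0.0524). With the replicate block it was 3.43 and was called (adjusted p = 0.00827). It was also the only one of the 6 whose mean stayed under 500 normalized reads on both days of line "50".

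**Figure D1:**
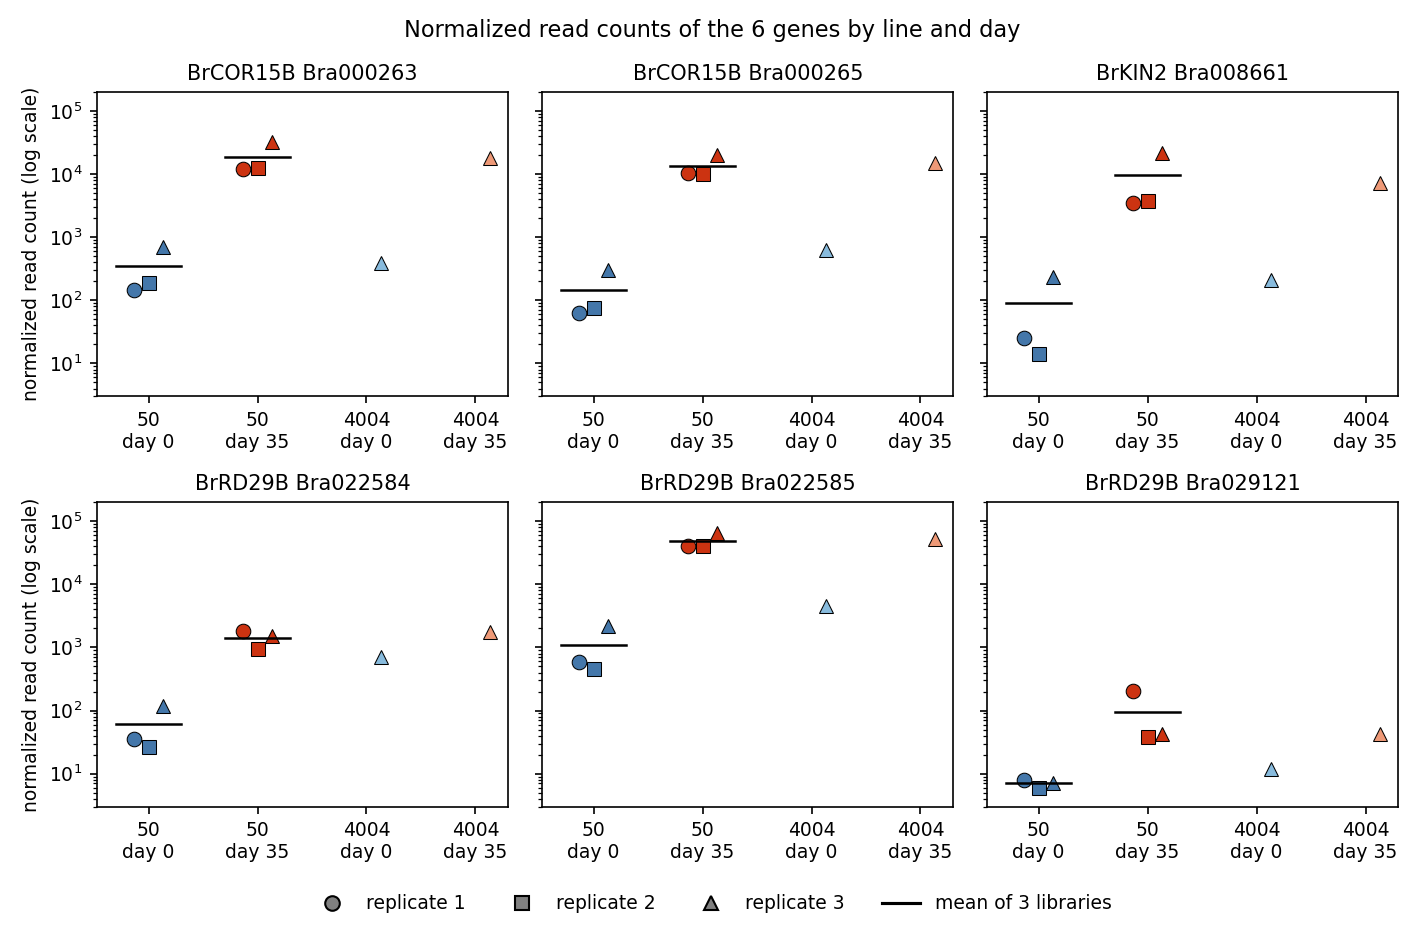
Normalized read count (log scale) of each of the 6 genes in the 8 libraries, by line and day, with the symbol giving the replicate number and the bar the mean of the 3 line "50" libraries. Every day 35 library of line "50" lies above every day 0 library in all 6 panels, and replicate 3 (triangles) is the highest on both days in 4 of them.

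Replicate 3 was the highest line "50" library in 5 of the 6 genes at day 0 and in 4 of the 6 at day 35. In Bra000263, Bra000265, Bra008661 and Bra022585 it was the highest on both days, which was so for 28.5% of all genes tested. The gap narrowed with vernalization in these 4. In Bra000263 replicate 3 was 4.16-fold the mean of the other two at day 0 and 2.62-fold at day 35, in Bra000265 4.35 and 1.97-fold, and in Bra022585 4.18 and 1.60-fold. These gaps carry the deposited scaling, which multiplied replicate 3 by 1.616 at day 0 and 1.702 at day 35. The multipliers of replicates 1 and 2 were 0.782 to 0.961, and the part of scaling in the gaps was not tested. Without replicate 3 all 6 genes were called in line "50", in a fit that called 3277 genes higher and 3075 lower in all. Leaving out replicate 1 or replicate 2, on both days or on either day, left 0 of the 6 called with their log2 fold changes still positive. The loss was general, since 0 of all genes were called without replicate 1 or replicate 2 on both days and 48 to 116 without one of their libraries.

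The 6 genes together took 0.00369%, 0.00327% and 0.0120% of all counts in replicates 1, 2 and 3 of line "50" at day 0. At day 35 they took 0.321%, 0.311% and 0.449%. In line "4004" the share was 0.0295% (95% exact binomial interval 0.0288 to 0.0302, counting error only) at day 0 and 0.385% (0.382 to 0.387) at day 35. Most of the share at day 35 was the reads of Bra022585 and of the COR15B copies.

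The early-bolting line gave the same direction of change with 1 library per day, so the values have no replicate check. In line "4004" all 6 genes were at least 2-fold higher at day 35, against 8.53% of all genes tested. Bra000263 went from 385 to 18000 normalized reads, a ratio of 46.8 (95% interval 42.4 to 52.0 from the counts alone). Bra000265 went from 625 to 15009, a ratio of 24 (22.2 to 26.1). These COR15B ratios were 55.2 and 93.5 for the means of line "50".

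KIN2 rose in line "4004" from 207 to 7188 normalized reads, a ratio of 34.7 (30.4 to 40.2). Among the RD29B genes, Bra022585 went from 4622 to 52652, a ratio of 11.4 (11.1 to 11.7). Bra022584 went from 700 to 1752, a ratio of 2.50 (2.29 to 2.74), and Bra029121 from 12 to 42, a ratio of 3.5 (1.91 to 7.73). The ratio in line "4004" was below that of the line "50" means in all 6 genes. It was below each of the 3 within-number ratios of line "50" in 5 of the 6 (Bra000263 was the exception), against 25.6% of all genes tested.

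**Figure D2:**
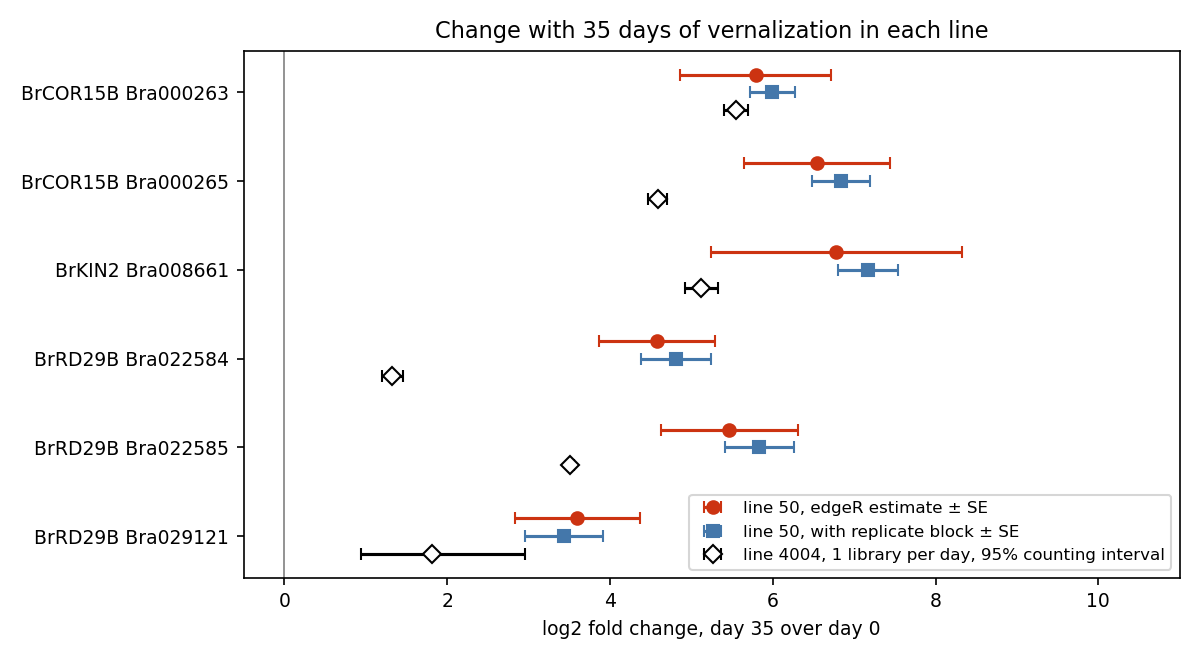
Log2 fold change from day 0 to day 35 of the 6 genes in line "50" (edgeR estimate with its SE, without and with the replicate block) and in line "4004" (ratio of 2 single libraries with its 95% counting interval). Every estimate is above 0, and the line "4004" point is the lowest of the 3 in every gene, with the widest gap at Bra022584, at 1.32 against 4.58.

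The difference between the responses of the lines was tested as an interaction (edgeR). It was not called for any of the 6, nor for any of the 31191 genes, of which 956 had an unadjusted p under 0.05. DESeq2 called 69 of all genes and none of the 6, and limma called 0. The estimates for the 6 genes were all negative, that is smaller in line "4004", from -0.26 for Bra000263 to -3.26 for Bra022584. Bra022584 had the only unadjusted p under 0.05, at 0.037. The result depended on replicate 3 of line "50". Without it 4 of the 6 were called smaller in line "4004" (Bra000265, Bra008661, Bra022584 and Bra022585, log2 differences -2.47 to -4.21, edgeR adjusted p = 0.0077 to 0.023), along with 2012 genes in all. The libraries of line "4004" carry the number 3 themselves.

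Before vernalization the lines were compared gene by gene, with 1 library of line "4004" assumed to vary like those of line "50". With edgeR 0 of the 6 were called (1 had an unadjusted p under 0.05, DESeq2 called 1 and limma 0), against 1.2% of all genes called higher and 0.292% called lower in line "4004". Line "4004" lay above all 3 libraries of line "50" in 4 of the 6, Bra000265, Bra022584, Bra022585 and Bra029121, and inside their range in Bra000263 and Bra008661. Lying above all 3 was found in 33% of all genes tested.

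The largest gap at day 0 was in Bra022584, the RD29B copy with 700 normalized reads in line "4004" and 26 to 120 in line "50". It was 11.6-fold the line "50" mean and 5.83-fold replicate 3. The log2 fold change was 3.47 ± 0.80 (edgeR adjusted p = 0.107), and with the replicate block it was 2.96 and called (adjusted p = 0.0401), against 4.66% of all genes called higher and 2.91% lower with the block. Bra000265 and Bra022585 were each 2.1-fold the replicate 3 value in line "4004", with log2 fold changes of 2.0 ± 0.92 and 1.98 ± 0.90 that did not pass. Without replicate 3 of line "50", 5 of the 6 were called higher in line "4004" and Bra029121 was not, in a fit that called 4479 genes higher and 4233 lower in all.

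After vernalization none of the 6 was called between the lines. At day 35 line "4004" lay inside the range of the 3 line "50" libraries in all 6 genes, as it did for 57.8% of all genes tested. The log2 fold changes of line "4004" over line "50" ran from -1.23 for Bra029121 to 0.20 for Bra022584, and all 6 adjusted p-values were 1 (edgeR, 0 called and 0 with an unadjusted p under 0.05, 0 by DESeq2 and by limma, against 0.353% of all genes higher and 0.093% lower). With the replicate block all 6 estimates were negative, down to -2.10 for Bra008661 (adjusted p = 0.0961), and 0 were called, against 0.494% of all genes higher and 0.458% lower. Without replicate 3 of line "50" the estimates turned positive for Bra000263, at 0.51, and Bra008661, at 0.94, with adjusted p = 0.035 and 0.0097 but below the log2 fold change of 1 that a call needed.

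The ratio between copies, that is genes assigned to one locus by the annotation, was compared between the days. No pair passed a test that could not give a p below 0.1. Ratios were taken from raw counts within a library, so that they carry no library scaling, and as a change between days no gene length. Bra000263 over Bra000265 was 2.37, 2.48 and 2.34 in replicates 1, 2 and 3 of line "50" at day 0, and 1.18, 1.23 and 1.60 at day 35. The day 0 values were close together and all above the day 35 values. The mean log2 ratio went from 1.26 ± 0.04 to 0.41 ± 0.24 (n = 3), a difference of -0.85 with an exact two-sided permutation p of 0.1, the smallest that 3 against 3 libraries can give.

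In line "4004" the same ratio was 0.616 (95% interval 0.541 to 0.700) at day 0, so that Bra000265 had more reads than Bra000263 there and in no other library, and it was 1.2 at day 35. The COR15B copies thus had ratios of 1.18 to 1.60 in the 4 day 35 libraries of both lines, while at day 0 the line "4004" value lay on the other side of 1 from the 3 of line "50".

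Among the RD29B genes, Bra022584 over Bra022585 was 0.0594, 0.0570 and 0.0545 in line "50" at day 0 and 0.0464, 0.0229 and 0.0234 at day 35. The ratio was lower in each day 35 library, and the mean log2 ratio changed by -0.96 (exact permutation p = 0.1, again the smallest possible). In line "4004" it was 0.151 at day 0 and 0.0333 at day 35. Ratios of Bra029121 to Bra022585 and to Bra022584 changed by -2.64 and -1.68 in line "50" (exact permutation p = 0.2 for each). Over the 4 pairs compared, every adjusted p was 0.2. The sources used here do not say how reads matching several genes were counted, and reads of near-identical copies could be split between them.

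**Figure D3:**
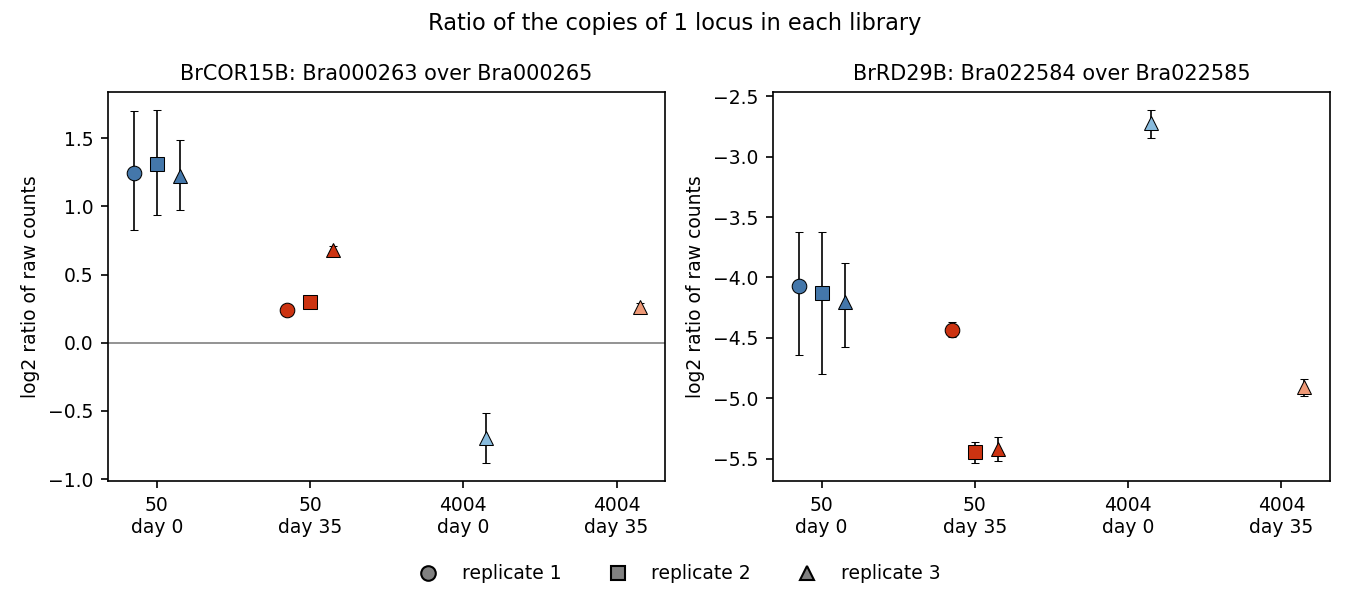
Log2 ratio of the raw counts of the COR15B copies (left) and of the RD29B copies Bra022584 and Bra022585 (right) in each of the 8 libraries, with 95% counting intervals. In line "50" the day 35 ratios lie below the day 0 ratios in both panels, and the single day 0 library of line "4004" stands apart from line "50" in opposite directions, below it on the left at -0.70 and above it on the right at -2.72.

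Profiles over the 8 libraries were compared as the root mean square difference of log2 CPM, each gene centred on its own mean. Of the 6, Bra000265 and Bra022585 were closest to each other, at 0.542, so that a COR15B gene and an RD29B gene were nearer than either was to its own copies. Bra008661 and Bra029121 were the farthest apart, at 2.63. Of 8001 other genes with a mean of at least 500 normalized reads, the same 2 were nearest to each of the most read genes of the 3 loci. They were Bra039946, annotated as a late embryogenesis abundant protein of group 6, and Bra031663, a gene of galactinol synthase 3 (GolS3), which makes the precursor of raffinose sugars. Their differences were 0.334 and 0.463 from Bra022585, 0.768 and 1.02 from Bra000263, and 0.965 and 1.41 from Bra008661, where the medians over the 8001 genes were 2.81, 3.03 and 3.62.

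Bra039946 had 36, 35 and 101 normalized reads in line "50" at day 0, 2352, 2565 and 6757 at day 35, and 368 and 4039 in line "4004". Like the COR15B genes it was highest in replicate 3 on both days. Its log2 fold change in line "50" was 6.12 ± 0.79 (edgeR adjusted p = 0.014). GolS3 had 50, 52 and 108, then 3476, 3493 and 2900, and 487 and 3711 in line "4004", and its replicates at day 35 were close together.

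The regulators were counted over a list that also holds regulators such as ICE1 and CAMTA3 that are present without cold in Arabidopsis. Of 23 tested genes at 12 loci of the CBF regulators (the CBF genes, their activators and repressors, and ZAT factors), 0 were called in line "50" by edgeR (11 had an unadjusted p under 0.05, DESeq2 called 5 and limma 0). With the replicate block 8 were called higher. Over all genes tested 2.23% were called higher without the block and 7.94% with it. The median log2 fold change was 1.02, the value of the ZAT12 genes Bra006691 and Bra006692. These 2 had the same value in every library and both are counted. The next lower value was 0.42 (Bra038534), so counting the pair once would lower the median. The 3 CBF2 genes, the CBF3 gene and the CBF1 gene had log2 fold changes of 2.21 to 2.57 (edgeR adjusted p = 0.0879 to 0.184), and all 5 were called with the block. Some of them had very few reads at day 0. Bra010460 (CBF2) had 2, 1 and 3 normalized reads then, and Bra010461 (CBF3) had 5, 1 and 8. Bra010463 (CBF1) had 9, 1 and 17. The lowest raw count was 1 in every library, so the smallest of these values lie at or near it. The fold changes of these genes depend in part on that lowest count. Bra022770 (CBF2) had 48, 22 and 106 normalized reads at day 0 and 203, 180 and 420 at day 35, and replicate 3 was the highest on both days, as it was for COR15B and KIN2.

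In line "4004" Bra022770 had 471 normalized reads at day 0 and 932 at day 35, so that its day 0 value was above all 6 libraries of line "50". At day 0, 6 of the 23 CBF regulators were called higher in line "4004" and 0 lower, with a median log2 fold change of 2.93 against -0.04 over all genes tested. With the block 11 were called higher. Over all genes tested 1.2% were called higher at day 0 without the block and 4.66% with it. The 6 were 3 genes of ZAT12, 2 of ZAT10 and CBF4, named after their values were seen. The ZAT12 genes Bra006691 and Bra006692 had the same value in every library and are not told apart. Both are counted in the 23, the 6, the 11 and the median. The median of 2.93 was the value of Bra022770, and the next lower value was 0.38 (Bra038534). Counting the pair once would therefore lower the median. All 6 were high in the single day 0 library of line "4004" and far lower at day 35, for example 2416 and then 257 normalized reads for Bra010922 (ZAT10). The 5 CBF1, CBF2 and CBF3 genes were not called without the block (log2 fold changes 2.93 to 3.58, edgeR adjusted p = 0.0993 to 0.195). With the block Bra022770, Bra019162, Bra010463 and Bra010461 were called higher (log2 fold changes 2.16 to 2.65). Bra010460 was not called with it (log2 fold change 2.26).

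Of 23 tested genes on a list of other cold-regulated genes, 10 were called higher and 1 lower in line "50" (edgeR), 18 and 1 with the block. The shares over all genes tested were 2.23% higher and 1.69% lower, and 7.94% and 7.69% with the block. The median log2 fold change was 1.78. Furthest up were GolS3, at 5.55 ± 0.45 (adjusted p = 0.00451), and Bra034595, listed under the COR28 locus, at 4.45 ± 0.33 (adjusted p = 0.00377). Bra034595 went from 22, 29 and 38 normalized reads to 670, 633 and 646. The 1 gene called lower was Bra010579, a COR413-like gene, with 1866, 997 and 147 at day 0 and 53, 62 and 25 at day 35 (log2 fold change -4.35 ± 0.87, adjusted p = 0.0451).

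Of 28 tested genes of the abscisic acid branch, 5 were called higher and 0 lower (12 and 0 with the block), with a median of 1.0. Over all genes tested these shares were 2.23% and 1.69% (7.94% and 7.69% with the block). Both genes of HB7, an abscisic acid-induced homeodomain factor in Arabidopsis, were furthest up. Bra004516 went from 135, 138 and 165 normalized reads to 1967, 1685 and 1551 (3.57 ± 0.25, edgeR adjusted p = 0.00377), and Bra039265 from 50, 56 and 142 to 1074, 878 and 924 (3.52 ± 0.50, adjusted p = 0.0184). No tested gene of the 3 lists reached the median of the 6 cold effectors in line "50". In line "4004" the median log2 ratio from day 0 to day 35 was 4.05 for the 6 genes, 0.78 for the other cold-regulated genes, -0.16 for the CBF regulators and -0.24 for the abscisic acid branch.

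**Figure D4:**
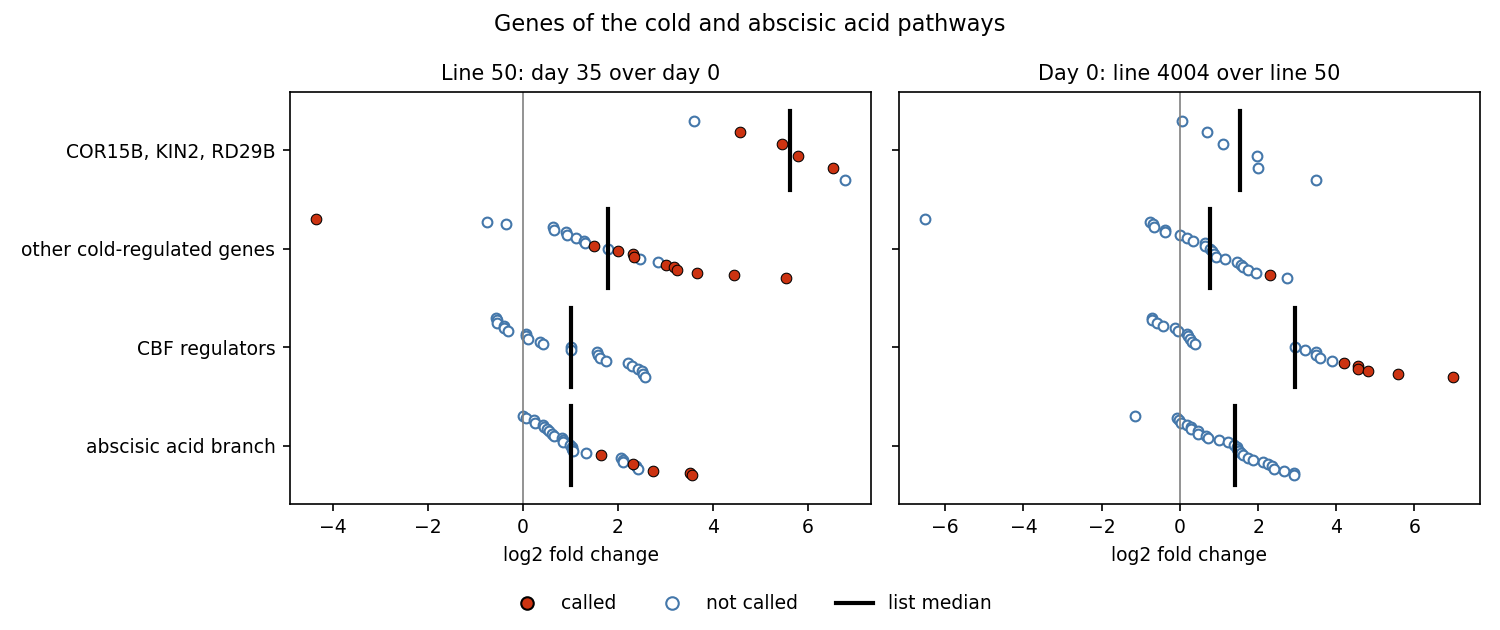
Log2 fold changes of the 6 genes and of 3 pathway lists, for day 35 over day 0 in line "50" (left) and line "4004" over line "50" at day 0 (right), with filled points called by edgeR and bars at the list medians. On the left the median of the 6 genes is 5.63 and those of the lists are 1.0 to 1.78, and on the right the highest median is that of the CBF regulators, at 2.93. The medians of the CBF regulators count both Bra006691 and Bra006692 (ZAT12), which have the same value in every library, and would be lower with the pair counted once.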

How the data were processed

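The authors trimmed the reads, aligned them with Bowtie2 to reference gene models of Brassica rapa, and deposited raw counts per gene as whole numbers. The sources used here name no counting program. The lowest count was 1 in every library, so 1 appears to have been added, and 676 genes had it in all 8. The deposited normalized read counts are a score, the raw count multiplied by 1 DESeq scaling factor per library and rounded. The multipliers were 0.782 to 1.702 here, set by the authors with other libraries included. They describe levels only. Deposited log2 ratios of group means were not used.

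Raw counts were tested as deposited with edgeR 4.0.16 (R 4.3.3, TMM scaling, filterByExpr, 31191 genes tested, quasi-likelihood F test, Benjamini-Hochberg adjustment), in 1 fit of 8 libraries with a coefficient for each of the 4 groups. The common coefficient of biological variation was 0.398 with 4 residual degrees of freedom, all from line "50". Genes were called where the adjusted p was under 0.05 and the log2 fold change was 1 or more in size. DESeq2 1.42.0 and limma 3.58.1 (on log2 of the normalized read count plus 1) were alternatives, beside other scalings, no filter, counts less 1, a replicate block, line "50" alone, and leaving out libraries. The fitting code was run on simulated counts with less spread than these data and no replicate differences. That run cannot check the calls made here. Day 35 over day 0 in line "4004" was not tested.

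Deviations of same-numbered line "50" libraries from their group means correlated at 0.446, 0.615 and 0.695 between the days, and the numbers were taken as pairs. The labels do not say what a number marks. Replicates 1 and 2 correlated with each other as well, at 0.473 and 0.563, both above the 0.446 of replicate 1 between the days. These values set replicate 3 apart but do not tell whether replicates 1 and 2 are paired as numbered. With the block, line "4004" is in effect set against replicate 3 of line "50". The methods describe the replicates as independent, each from several plants.

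Named genes were every gene of the 6 loci, the 2 genes of nearest profile to the most read gene of each locus (log2 CPM, prior count 2), all CBF1, CBF2 and CBF3 genes, and in each pathway list the 2 called genes furthest up and down in line "50". The members, lists and tests were chosen with earlier results of these data known. No coordinates or sequences are given, since the gene names did not match the reference table used here.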

Additional observations from a re-analysis of the deposited data

Results flagged for a closer look

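The log2 ratio of Bra000263 over Bra000265 (COR15B) changed by -0.85 from day 0 to day 35 in line "50", where all 3 day 35 libraries lay below the day 0 libraries, and by 0.96 in line "4004". The log2 ratio of Bra029121 over Bra022584 (RD29B) changed by -1.68 in line "50", lower within each replicate number but with overlapping days, and by 0.38 in line "4004". In line "4004" the latter ratio was 0.0184 (95% counting interval 0.00874 to 0.0299) at day 0 and 0.0239 (0.0168 to 0.0317) at day 35, so its change there was within counting error. Line "4004" had 1 library per day, and neither difference between the lines was tested.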

How the results depend on the processing

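All 6 genes kept a positive log2 fold change with vernalization in line "50" in each of 17 settings. Among the 6, 4 were called, with 6 by DESeq2 and with the block, 5 by limma and by library totals, and 0 to 6 without replicates. Over all genes the count was 1224, with 2954 by DESeq2, 4876 with the replicate block and 0 to 6352 without replicates. Between the lines at day 0 the count among the 6 was 0, with 1 (Bra022584) by library totals, DESeq2 and the block, and 0 to 5 without replicates. Over all genes it was 466, with 1566 by DESeq2, 277 with counts less 1, 2363 with the block and 2 to 8712 without replicates. At day 35 it was 139 over all genes, with 433, 47, 297 and 0 to 5084 in that order, and 0 among the 6. The interaction gave 0 genes, 69 by DESeq2 and 0 to 2012 without replicates, and 0 to 4 among the 6. The causes were not tested. The block changed no call of the 6 beside those of Bra008661 and Bra029121 in line "50" and of Bra022584 at day 0.

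Some estimates that were not called changed sign. At day 0 the block gave -0.81 for Bra000263 and -0.04 for Bra008661, and leaving out replicates gave -0.33 to 1.19 for Bra000263. At day 35 Bra022585 was -0.01 with RLE scaling and with DESeq2, Bra000263 was 0.01 by library totals and 0.08 by limma, and Bra008661 was 0.11 by limma. The block gave -1.01 for Bra000265, -0.54 for Bra022584 and -1.03 for Bra022585. Leaving out replicates gave -0.16 to 0.53 for Bra000265, -0.14 to 0.35 for Bra022585, -0.04 to 0.38 for Bra022584, -0.47 to 0.52 for Bra000263 and -1 to 0.94 for Bra008661. In the interaction Bra000263 ran from -1.39 to 0.44. By library totals the line "4004" ratios were 42.2 for Bra000263, 21.7 for Bra000265, 2.26 for Bra022584 and 10.3 for Bra022585. Bra029121 had only 6 to 8 normalized reads in each line "50" library at day 0.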
